A study of Mus musculus with 16 samples.

Results

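Cytosolic heat shock proteins and their co-chaperones were examined in the hypothalamus of diet-induced obese mice that had received the plant triterpenoid celastrol, a restricted food ration, both or neither. The members were taken by gene symbol: the HSP90, HSP70, HSP110, small heat shock protein and chaperonin families, the J proteins of types A, B and C, and 8 listed genes. These 8 were the chaperonin subunit Tcp1 and Ahsa1, Fkbp4, Stip1, Chordc1, Cdc37, Hsf1 and Bag3, which assist or regulate the families. Of the 24047 genes in the count table, 85 matched by name or were listed, and 73 of these reached the required total of 160 counts over the 16 libraries. The members nearest above that limit were Dnajb3 with 197 counts and Dnajb13 with 264, and the genes nearest below it were Cct6b with 134 and Hspa1l with 89. All 73 members passed the filter on low counts that preceded testing, which left 14775 genes. The name cytosolic does not hold for every member. The products of 8 (among them Hspd1, Hspe1 and Hspa9) were assigned to mitochondria and those of 6 (among them Dnajc10 and Hspa13) to the endoplasmic reticulum. The other 59 were put together as cytosolic, nuclear or not assigned, so more of them may work outside the cytosol.

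Heat shock proteins are molecular chaperones that hold unfolded proteins, help them to fold and pass those beyond rescue to degradation. HSP70 binds exposed stretches of a client with the help of J proteins, which stimulate its ATPase, and of exchange factors such as HSP110 and BAG proteins, which release the nucleotide. HSP90 then takes over clients such as steroid receptors and kinases through adaptors, while the ring-shaped chaperonins enclose actin, tubulin and other clients. Heat shock factor 1, the product of Hsf1, binds heat shock elements in the promoters of many of these genes when cells are stressed. In neurons, which express the constitutive forms at high levels, Hspa8 also strips the coat from synaptic vesicles. Celastrol is known as an activator of heat shock factor 1 in cultured human cells.

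Each of 4 groups had 4 libraries of hypothalamic RNA from C57BL/6J mice made obese on high-fat diet, and all mice had first received daily DMSO injections for 1 week. In the 4 days that followed, Veh mice were given DMSO and ate freely, and CS mice were given celastrol at 100 µg per kg per day and ate freely. PF mice were given DMSO and a daily 0.5 g of the diet, of which 0.34 g came in the dark cycle, less than the 0.8 g that celastrol-treated mice ate on average, and PF+CS mice were given celastrol with the ration of the PF group. Tissue was taken 6 h after the last injection. The labels name no sex, age or pooling, and nothing states that the libraries of a group came from separate mice, so p-values measure the spread between these libraries.

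Depth ranged between 6008564 (PF 1) and 12880459 (Veh 3) counts per library, and 16998 to 17961 genes were detected. No pair of libraries held identical values. In 3 of the 5 comparison tables that the authors deposited, the name conflicts with the count columns the table was computed from, and all 3 conflicts exchange PF and CS. The groups are named here by the sample titles and count columns. If the table names are right, PF and CS trade places in every comparison below, and what is given as PF and PF+CS against Veh and CS becomes the 2 celastrol-treated groups against the 2 without celastrol. The tissue label was checked by its markers: the sum of Pomc, Agrp, Avp, Oxt, Hcrt, Nkx2-1 and Sim1 was 337 to 414 CPM in Veh, 246 to 297 in CS, 277 to 336 in PF and 249.8 to 309 in PF+CS, so that every Veh library lay above every other. Libraries Veh 3, PF 1, PF 2, CS 2 and PF+CS 4 stood apart in markers of meningeal fibroblasts, with a mean log2 CPM of 2.33 to 2.78 over 8 markers against 3.97 to 4.61 in the others.

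The 4 genes that mark the module were among its most abundant members. Levels of different genes were compared per length, as FPKM (fragments scaled to gene length and library depth) averaged over the 16 libraries. Hspa8, the constitutive cytosolic HSP70, stood first at 286 FPKM, followed by Hsp90ab1, the constitutive HSP90, at 177 and Hsp90aa1, the stress-inducible HSP90, at 130.4 FPKM. Hsph1, the stress-inducible HSP110, came next at 34.9 FPKM, above Stip1 at 31.7, an adaptor that joins HSP70 to HSP90. The highest J protein was the type C member Dnajc6 at 28.5 FPKM, the auxilin that recruits Hspa8 to clathrin-coated vesicles, followed by Dnajc5 at 26.3 FPKM. Dnajb6 was the highest of type B at 23.4 FPKM and Dnaja2 of type A at 18.9 FPKM. Chaperonin subunits were even in level, from 18.3 FPKM for Cct3 to 27.5 FPKM for Tcp1. The lowest of their families were Dnajb13 at 0.462 FPKM, Hspa12b at 0.690, Dnajc25 at 0.890, Hspb6 at 1.48, Bag3 at 1.84 and Dnaja4 at 4.36 FPKM. No member grouped by its symbol with the small heat shock proteins exceeded 3.51 FPKM (Hspb11). Cryab, a small heat shock protein outside the naming rule, measured 34.1 to 50.6 CPM over the 16 libraries. Hspa1a and Hspa1b, the strictly inducible HSP70 genes, were at 1.83 and 1.32 FPKM, far below Hspa8.

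**Figure D1:**
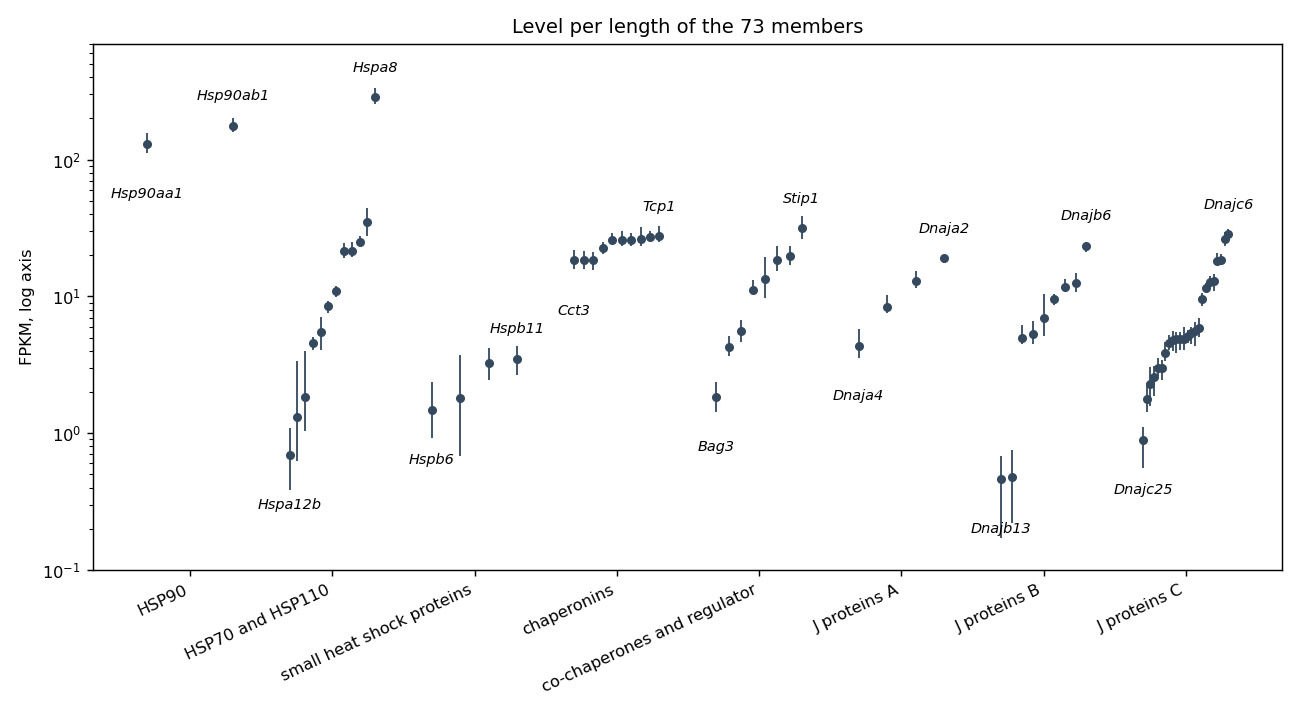
FPKM of each of the 73 members on a log axis, by role; points are means of the 16 libraries and lines run from the lowest to the highest library, with the highest and lowest member of each role named. Hspa8 at 286, Hsp90ab1 at 177 and Hsp90aa1 at 130.4 FPKM lie above all other members.

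The summed share of counts that the members took was highest in the libraries labelled PF and lowest in those labelled CS. It was 0.908 ± 0.00330% of a library in CS, 0.931 ± 0.0130% in Veh, 0.970 ± 0.0370% in PF+CS and 1.01 ± 0.0431% in PF (mean ± SD, n = 4). In PF minus Veh, 12 of the 73 members were higher and 1 was lower by edgeR's quasi-likelihood test at a Benjamini-Hochberg adjusted p of at most 0.05 over all genes tested, where 2.36% of all genes were called higher and 1.28% lower. In CS minus Veh, 0 members were higher and 1 was lower, against 0.305% and 0.589% of all genes. In PF+CS minus Veh, 7 were higher and 4 lower, and the shares over all genes, 5.85% and 4.47%, came near those of the members. In PF+CS minus CS, 4 were higher and 0 lower against 1.79% and 0.866%, and in CS minus PF 1 was higher and 18 lower against 1.56% and 2.23%. These comparisons share groups, so their counts are not independent of each other.

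No member was called in PF+CS minus PF, which sets celastrol against DMSO under the same ration. The count was 0 by edgeR and 0 by DESeq2, and 0.0948% of all genes were called. At an unadjusted p under 0.05 there were 7 members and 7.85% of all genes. The interaction asks whether the celastrol difference depends on the ration, and it also gave 0 members by edgeR and 0 by DESeq2, with 0% of all genes called. At an unadjusted p under 0.05 there were 3 members and 5.02% of all genes. The median log2 change of the members was 0.05 in PF minus Veh, −0.03 in CS minus Veh, 0.01 in PF+CS minus Veh, −0.06 in PF+CS minus PF and −0.11 in CS minus PF. Over all genes tested these medians were between −0.01 and 0.00.

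A comparison of both groups on the ration (PF and PF+CS) with both that ate freely (Veh and CS), 8 libraries against 8, was added after the pairwise values had been seen. It called 20 members higher and 3 lower, where 6.92% of all genes were called higher and 4.52% lower. The members' median was 0.05 on the log2 scale, against 0.00 over all genes. Among the 20, Hspa4l, Hspa8, Hspb1, Hspd1, Fkbp4, Stip1, Chordc1 and Dnajb1 were called in neither PF minus Veh nor PF+CS minus Veh. Of these, 3 (Hspb1, Chordc1 and Dnajb1) were called in no pair of groups. The CS mean was the lowest for 16 of the 20, so for these the change also holds the distance of CS below Veh. Over all 73 members, PF had the highest group mean for 38 and the lowest for 5, Veh the highest for 16 and the lowest for 17, CS the highest for 10 and the lowest for 33, and PF+CS the highest for 9 and the lowest for 18. These ranks were not counted over all genes, so whether they are particular to the members is not known. Under limma with either pseudocount 17 of the 23 members kept their call, and Hspa4l, Hspa12b, Hspb1, Hspd1, Fkbp4 and Dnajb1 lost it. The 50 members that were not called ranged from −0.15 to 0.25, with 32 above 0. The same split for celastrol, CS and PF+CS against Veh and PF, called 0 higher and 2 lower, Cct7 (−0.19) and Fkbp4 (−0.15), against 1.14% and 1.45% of all genes. Fkbp4 lost that call without Veh 2 (adjusted p = 0.0647), PF 1 (0.06) or CS 4 (0.0603), under limma and when the 5 libraries low in meningeal markers were left out, and the count was 6 without PF 3.

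**Figure D2:**
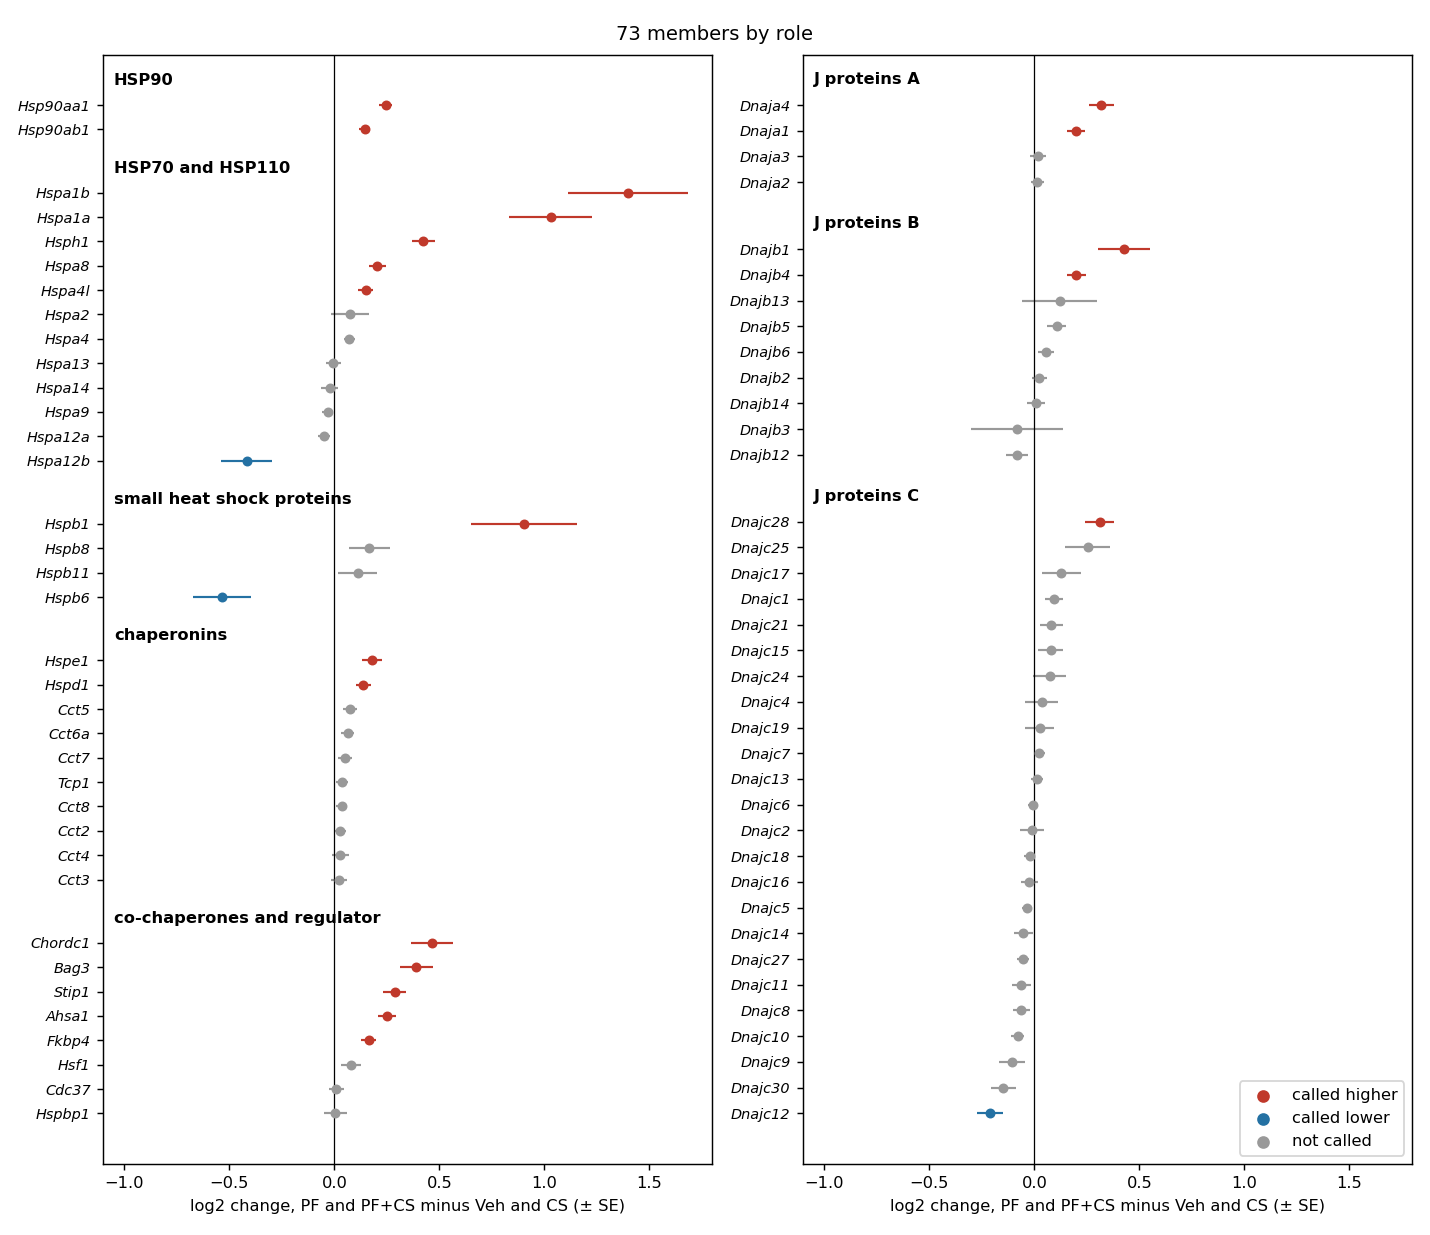
Log2 change of each of the 73 members in PF and PF+CS minus Veh and CS (x axis), grouped by role, from edgeR; points are estimates, lines are ± 1 SE, and colours mark members called at an adjusted p of at most 0.05. The 20 members called higher lie mostly among HSP90, HSP70 and HSP110 and the co-chaperones, from 0.14 (Hspd1) to 1.40 (Hspa1b), and the 3 called lower are Hspa12b, Hspb6 and Dnajc12.

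Markers of some cell types also moved in the comparison of 8 with 8. All 5 oligodendrocyte markers and 3 of 5 microglial markers were lower, and their summed levels were 2823 to 3402 CPM in Veh, 3219 to 3545 in CS, 2626 to 2982 in PF and 2605 to 3124 in PF+CS for oligodendrocytes. For microglia the sums were 138 to 145 CPM in Veh, 131 to 138 in CS, 101 to 120.2 in PF and 100.4 to 128 in PF+CS. No neuronal marker of 5 was called, with sums of 2149 to 2424 CPM in Veh, 2361 to 2411 in CS, 2254 to 2425 in PF and 2226 to 2381 in PF+CS. Of the 7 hypothalamic markers 1 was higher and 1 lower there, and 3 were lower in CS and PF+CS minus Veh and PF, and the part of this in the members' values was not tested. Of the others, 1 of 5 astrocyte and 1 of 5 mural markers were lower, 1 of 5 endothelial markers was higher and 1 lower, none of 8 meningeal and none of 5 ependymal markers was called, and the haemoglobin genes were listed at 0 in every library. In bulk tissue, fewer cells of a type and less RNA per cell cannot be told apart, and the part of cell makeup in the members' differences was not tested. Without the 5 libraries low in meningeal markers, 21 of the 23 members kept their call, and Dnajb1 and Dnajc12 lost it.

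Because heat shock factor 1 acts through heat shock elements, the promoters of the members were read for them. The search was for GAA, any 2 bases, TTC, any 2 bases and GAA, or the reverse complement of that run, which makes 3 inverted units without a mismatch over 13 bases. Both strands were thus covered, and overlapping matches were merged. It ran from 250 bases before to 50 after each start in the RefSeq promoter table (GRCm38.p6), where 60 of the 73 members had a window. A match was found for 5 members, and for 4 of the 17 with a window among the 20 called higher (23.5%) against 1 of the 43 others (2.33%). Hspa1a, Hspa1b, Hspb1, Dnajb1 and Bag3, all called higher, had a window without a match. Whether a match goes with a call was not tested. Of all 27025 genes with a window in the table, 179 had a match (0.662%). The 13 members without a window were not read, and they include Hsp90aa1, Hsp90ab1 and Hspa8, which were called higher, and Hsf1. Hspd1 and Hspe1 share 1 element, so the 4 members stand for 3 stretches of DNA. The sequences are shown because they are those the members called higher carry, together with that of Dnajb6, which was not called, and the matched stretch is in capitals.
Hspe1, forward strand, chr1:55088038-55088097: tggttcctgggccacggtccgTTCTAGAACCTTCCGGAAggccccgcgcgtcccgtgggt
Hspd1, reverse strand, chr1:55088053-55088082: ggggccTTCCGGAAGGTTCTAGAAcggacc
Chordc1, forward strand, chr9:18292260-18292289: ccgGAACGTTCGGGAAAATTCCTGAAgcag
Hsph1, reverse strand, chr5:149636279-149636308: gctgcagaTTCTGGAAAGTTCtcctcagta
Dnajb6, forward strand, chr5:29735844-29735873: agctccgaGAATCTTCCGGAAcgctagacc
In Chordc1, 3 overlapping matches made a run of 23 bases from 4 before to 18 after the start. In Hsph1 the match began 15 or 36 bases after the start, depending on the transcript. The stretch between the RefSeq starts of Hspd1 and Hspe1 held 2 overlapping matches in 18 bases, ending 72 bases before the start of Hspe1 and 127 before that of Hspd1. The locus of Hspd1 given below, from GENCODE annotation, begins farther upstream and contains these matches. A match describes the letters and does not show that the factor binds there, and the windows of the other members say nothing about elements with a mismatch or farther away.

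Both HSP90 genes rose in the 8 libraries on the ration. Hsp90aa1 (chr12:110690605-110702728, GRCm38), the stress-inducible form, measured 741, 745, 787 and 809 CPM in Veh 1 to 4, 726, 721, 711 and 727 in CS 1 to 4, 874, 929, 829 and 998 in PF 1 to 4 and 909, 808, 869 and 844 in PF+CS 1 to 4. Every PF library lay above every Veh library and every CS library lay below them, and only PF+CS 2 fell under the highest Veh library. The rise was 0.24 (SE 0.032, adjusted p = 2.81e-05) by edgeR's quasi-likelihood test, the smallest adjusted p among the members. Hsp90ab1 (chr17:45567775-45573271), the constitutive form, measured 1199, 1212, 1249.7 and 1247 CPM in Veh 1 to 4, 1157, 1160.4, 1155 and 1156 in CS 1 to 4, 1349, 1383, 1232 and 1416 in PF 1 to 4 and 1318, 1236, 1352 and 1244 in PF+CS 1 to 4. The 4 CS libraries lay close together and below all Veh libraries, while PF 3, PF+CS 2 and PF+CS 4 overlapped with Veh. Hsp90ab1 rose by 0.14 (SE 0.025, adjusted p = 0.000354).

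Of the 12 HSP70 and HSP110 genes, 5 rose on the ration, 1 fell and 6 were not called. Hsph1 (chr5:149614287-149636376), the HSP110 that exchanges nucleotide on HSP70, measured 307, 319.7, 339.9 and 355 CPM in Veh 1 to 4, 299, 307, 309.8 and 296 in CS 1 to 4, 440.2, 462, 365 and 470.2 in PF 1 to 4 and 450.4, 382, 442 and 379 in PF+CS 1 to 4. It was the 1 member called higher for which all 8 libraries on the ration lay above all 8 others, a pattern that 0.812% of all genes showed. Hsph1 rose by 0.42 (SE 0.056, adjusted p = 0.000357). For Hspa8 (chr9:40800984-40810087), the constitutive HSP70, the libraries gave 923, 938, 1024 and 1010.1 CPM in Veh 1 to 4, 978, 958, 978 and 951 in CS 1 to 4, 1127, 1166, 995 and 1227 in PF 1 to 4 and 1174, 1101, 1149 and 997 in PF+CS 1 to 4. PF 3 and PF+CS 4 lay within the range of Veh and the other 6 libraries on the ration lay above it. Hspa8 rose by 0.20 (SE 0.041, adjusted p = 0.00469). Hspa4l, a relative of HSP110, rose by 0.15 (SE 0.037, adjusted p = 0.0108), with 206 to 243 CPM in Veh, 213 to 232 in CS, 231 to 279 in PF and 236 to 255 in PF+CS, and these ranges overlap.

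The strictly inducible HSP70 genes had the largest changes of the members called higher. Hspa1a (chr17:34969190-34972156) measured 3.76, 3.11, 4.08 and 3.95 CPM in Veh 1 to 4, 3.68, 3.36, 3.23 and 4.26 in CS 1 to 4, 8.78, 13.96, 4.56 and 7.28 in PF 1 to 4 and 8.83, 6.16, 6.73 and 4.11 in PF+CS 1 to 4. All PF libraries were above all Veh and CS libraries, with PF 2 far above the rest, and of PF+CS only PF+CS 4 lay among those fed freely. The rise was 1.03 (SE 0.20, adjusted p = 0.00315). Hspa1b (chr17:34956436-34959238) measured 1.69, 2.47, 2.04 and 3.23 CPM in Veh 1 to 4, 1.72, 2.52, 1.52 and 2.21 in CS 1 to 4, 3.04, 11.9, 5.30 and 7.56 in PF 1 to 4 and 6.41, 3.20, 5.65 and 2.44 in PF+CS 1 to 4. PF 1, PF+CS 2 and PF+CS 4 overlapped with Veh, and the rise was 1.40 (SE 0.29, adjusted p = 0.0063). The genes lie 9951 bases apart and are near-identical, so the split of their reads is uncertain. Their sum was 5.45, 5.58, 6.12 and 7.18 CPM in Veh 1 to 4, 5.40, 5.87, 4.75 and 6.47 in CS, 11.8, 25.8, 9.87 and 14.8 in PF and 15.2, 9.36, 12.4 and 6.55 in PF+CS. Raw counts were small, from 28 to 127 for Hspa1a and from 13 to 108 for Hspa1b.

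The 6 HSP70 genes that were not called ranged from −0.05 to 0.07. They include Hspa4 (0.07), an HSP110 relative, Hspa9 (−0.03), the mitochondrial HSP70, and Hspa13 (−0.00), whose product is microsomal. Hspa12b, a distant HSP70 relative of blood vessel endothelium, fell by 0.42 (SE 0.12, adjusted p = 0.0248). Its levels were 8.57, 11.4, 6.20 and 7.91 CPM in Veh 1 to 4, 9.08, 9.83, 6.75 and 8.60 in CS 1 to 4, 4.56, 4.73, 6.77 and 5.99 in PF 1 to 4 and 5.99, 6.28, 8.43 and 8.23 in PF+CS 1 to 4. The groups overlap, with PF 1 and PF 2 the lowest libraries. The call was lost without Veh 2, PF 2, CS 1, CS 2, PF+CS 1 or PF+CS 2, at adjusted p values up to 0.0742. The summed level of 5 endothelial markers was 87.5 to 103 CPM in Veh, 104 to 138 in CS, 90.5 to 118 in PF and 133 to 159 in PF+CS, and its part in the value of Hspa12b was not tested.

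**Figure D3:**
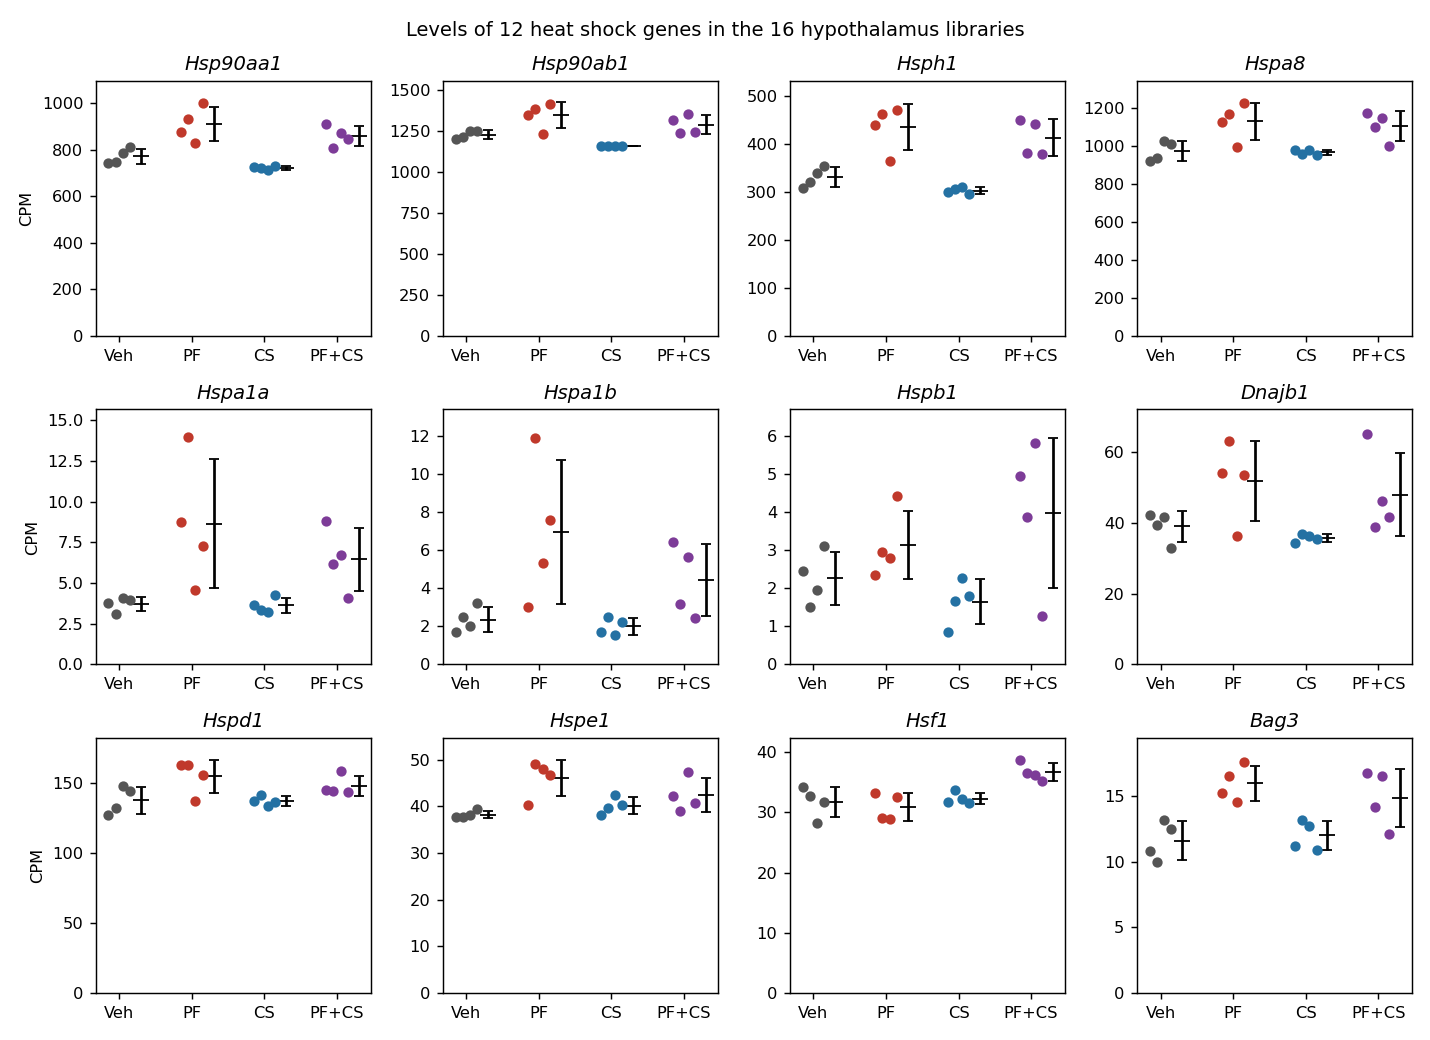
CPM (y axis, from 0) of 12 members in each library by group (x axis); points are libraries 1 to 4 from left to right, and the bar beside them is the mean ± SD (n = 4). Hsp90aa1, Hsph1 and Hspa1a are above every Veh library in all 4 PF libraries, and Hsf1 is highest in the 4 PF+CS libraries.

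Among the J proteins of types A and B, which deliver clients to HSP70, 4 of 13 rose. Dnajb1 (chr8:83608193-83612653), the classical stress-inducible HSP40, measured 42.3, 39.3, 41.7 and 32.9 CPM in Veh 1 to 4, 34.3, 36.8, 36.2 and 35.6 in CS 1 to 4, 54.2, 63.2, 36.4 and 53.5 in PF 1 to 4 and 65.1, 38.9, 46.3 and 41.8 in PF+CS 1 to 4. PF 1, PF 2, PF 4, PF+CS 1 and PF+CS 3 lay above every library of mice fed freely, and PF 3, PF+CS 2 and PF+CS 4 did not. The change was 0.43 (SE 0.12, adjusted p = 0.0448), and the call was lost in 12 of the 16 fits that left out 1 library (all but those without PF 3, PF+CS 1, PF+CS 2 or PF+CS 4), with adjusted p up to 0.0908. Dnaja4 measured 35.4, 38.6, 34.8 and 34.3 CPM in Veh 1 to 4, 35.4, 33.9, 36.6 and 34.9 in CS 1 to 4, 43.7, 44.4, 42.0 and 51.6 in PF 1 to 4 and 49.4, 38.1, 46.8 and 35.9 in PF+CS 1 to 4. All 4 PF libraries were above all Veh and CS libraries, and PF+CS 2 and PF+CS 4 were not. Dnaja4 rose by 0.32 (SE 0.059, adjusted p = 0.000819).

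Dnaja1, an abundant partner of Hspa8, measured 147, 145, 155 and 160.3 CPM in Veh 1 to 4, 145, 149.7, 145 and 139.6 in CS 1 to 4, 163, 189.97, 155 and 193 in PF 1 to 4 and 171, 149.9, 168 and 170.04 in PF+CS 1 to 4. PF 3 and PF+CS 2 lay within the range of Veh and the others above it, and the rise was 0.20 (SE 0.042, adjusted p = 0.00328). Dnajb4 rose by 0.20 (SE 0.045, adjusted p = 0.00504), from 77.0 to 91.1 CPM in Veh and 84.9 to 91.4 in CS to 88.2 to 110.1 in PF and 89.8 to 103 in PF+CS, where PF 3 and PF+CS 4 overlap with the groups fed freely. Dnaja2 and Dnaja3 stood at 0.01 and 0.02 without a call. The 7 type B members not called ranged from −0.08 to 0.12, among them Dnajb2 (0.02), a neuronal J protein, and Dnajb6 (0.05), a suppressor of polyglutamine aggregation.

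Type C J proteins, a mixed family joined by the J domain alone, held 24 members, of which 1 rose, 1 fell and 22 were not called. Those 22 ranged from −0.15 to 0.25, among them Dnajc5 (−0.03), the cysteine string protein of synaptic vesicles, and the auxilin gene Dnajc6 (−0.01). Dnajc28 rose by 0.31 (SE 0.068, adjusted p = 0.00298), with 13.7 to 16.3 CPM in Veh, 13.4 to 15.4 in CS, 15.8 to 20.8 in PF and 15.7 to 18.3 in PF+CS, where only PF 3 and PF+CS 4 overlap with Veh. Dnajc12, a co-chaperone of the hydroxylases that make serotonin and catecholamines, measured 18.9, 19.0, 21.0 and 18.9 CPM in Veh 1 to 4, 17.3, 18.9, 17.97 and 16.9 in CS 1 to 4, 15.03, 17.7, 15.2 and 15.3 in PF 1 to 4 and 17.9, 15.3, 15.8 and 16.3 in PF+CS 1 to 4. All 8 libraries on the ration lay below all Veh libraries, but not below all CS libraries. Dnajc12 fell by 0.21 (SE 0.062, adjusted p = 0.0235), a call lost without PF 4 (adjusted p = 0.0513).

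Of the 8 co-chaperones and regulators, which include Hspbp1 and not Tcp1, 5 rose on the ration and none fell. Ahsa1, the activator of the HSP90 ATPase, measured 67.9, 68.2, 74.0 and 74.1 CPM in Veh 1 to 4, 65.9, 72.5, 69.9 and 65.5 in CS 1 to 4, 85.6, 88.0, 75.4 and 89.6 in PF 1 to 4 and 84.4, 76.0, 90.1 and 73.3 in PF+CS 1 to 4. PF+CS 4 alone lay within the range of Veh, and Ahsa1 rose by 0.25 (SE 0.044, adjusted p = 0.000304). Stip1 measured 179, 181, 194 and 203 CPM in Veh 1 to 4, 173, 171, 180.4 and 169.8 in CS 1 to 4, 227, 236, 194 and 251 in PF 1 to 4 and 221, 210.3, 241 and 186 in PF+CS 1 to 4. PF 3 and PF+CS 4 overlapped with Veh, and the rise was 0.29 (SE 0.057, adjusted p = 0.00478). Fkbp4, an immunophilin that sits on HSP90 in steroid receptor complexes, measured 119, 123, 117 and 113 CPM in Veh 1 to 4, 111, 101, 105 and 103 in CS 1 to 4, 145, 132, 114 and 133 in PF 1 to 4 and 122, 118, 122 and 113 in PF+CS 1 to 4. All CS libraries were below all Veh libraries, while PF 3 and all 4 PF+CS libraries lay within or just under the range of Veh. The change of Fkbp4 over the 8 and 8 libraries was 0.16 (SE 0.037, adjusted p = 0.00397), and against Veh alone it was not called, at 0.15 (SE 0.052, adjusted p = 0.113) in PF and 0.01 (SE 0.052, adjusted p = 0.937) in PF+CS.

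Chordc1, an HSP90-binding co-chaperone with the element shown above at its start site, measured 71.4, 73.4, 97.7 and 83.9 CPM in Veh 1 to 4, 86.1, 87.1, 91.5 and 82.2 in CS 1 to 4, 113, 128, 86.9 and 144 in PF 1 to 4 and 117, 106, 128 and 103 in PF+CS 1 to 4. Of the libraries on the ration only PF 3 lay within the range of those fed freely, and Chordc1 rose by 0.47 (SE 0.10, adjusted p = 0.0106). Bag3, which releases nucleotide from HSP70 and directs clients to autophagy, measured 10.8, 9.98, 13.2 and 12.5 CPM in Veh 1 to 4, 11.2, 13.2, 12.7 and 10.9 in CS 1 to 4, 15.2, 16.5, 14.6 and 17.6 in PF 1 to 4 and 16.7, 14.2, 16.5 and 12.1 in PF+CS 1 to 4. PF+CS 4 alone overlapped, and the rise was 0.39 (SE 0.08, adjusted p = 0.00166). Cdc37, which brings kinases to HSP90, and Hspbp1, an exchange factor of HSP70, stood at 0.01 and 0.00 without a call.

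Hsf1 itself (chr15:76477422-76501913) did not follow the genes above. It measured 34.3, 32.6, 28.2 and 31.7 CPM in Veh 1 to 4, 31.8, 33.7, 32.1 and 31.6 in CS 1 to 4, 33.3, 29.0, 28.9 and 32.5 in PF 1 to 4 and 38.7, 36.5, 36.2 and 35.2 in PF+CS 1 to 4. The 4 PF+CS libraries lay above the other 12, which overlap with each other. Hsf1 was called in PF+CS minus Veh, where it rose by 0.22 (SE 0.066, adjusted p = 0.0324), and in no other comparison. In PF minus Veh it stood at −0.03 and in the comparison of 8 with 8 at 0.08 (SE 0.048, adjusted p = 0.329). The call was lost without any of Veh 2, Veh 3, Veh 4, PF+CS 1, PF+CS 2 or PF+CS 3, with adjusted p up to 0.126. Hsf1 also lost it by DESeq2, with only the groups compared and under limma with either pseudocount. The same held without the 5 libraries low in meningeal markers. The activity of the factor is set mainly after translation, which these counts do not measure.

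Of the 10 chaperonin genes, the mitochondrial pair Hspd1 (chr1:55077835-55088243) and Hspe1 (chr1:55088132-55091307), the ring and its lid, rose on the ration and the other 8 were not called. Hspd1 and Hspe1 are transcribed away from each other from loci that share 112 bases. Hspd1 measured 127, 133, 148 and 144 CPM in Veh 1 to 4, 137, 142, 134 and 137 in CS 1 to 4, 163, 163, 138 and 156 in PF 1 to 4 and 145, 144, 159 and 144 in PF+CS 1 to 4. PF 1, PF 2, PF 4 and PF+CS 3 lay above every library of mice fed freely, and Hspd1 rose by 0.14 (SE 0.036, adjusted p = 0.0123). Hspe1 measured 37.6, 37.8, 38.1 and 39.4 CPM in Veh 1 to 4, 38.0, 39.7, 42.4 and 40.3 in CS 1 to 4, 40.4, 49.1, 48.0 and 46.6 in PF 1 to 4 and 42.3, 39.0, 47.4 and 40.7 in PF+CS 1 to 4. All PF libraries lay above all Veh libraries, PF 1 lay within the range of CS, and Hspe1 rose by 0.18 (SE 0.046, adjusted p = 0.0108). The other 6 members assigned to mitochondria, such as Hspa9 and Dnaja3, were not called.

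None of the 8 subunits of the cytosolic ring TRiC was called on the ration, where they ranged from 0.02 to 0.08. In CS minus Veh all 8 had negative values, from −0.23 to −0.02, and 1 of them, Cct7, was called. Cct7 (chr6:85451514-85468475) measured 139.9, 145, 136 and 149.7 CPM in Veh 1 to 4, 124, 121, 119.98 and 122 in CS 1 to 4, 148, 143, 133 and 151 in PF 1 to 4 and 139, 122, 126 and 130.2 in PF+CS 1 to 4. The 4 CS libraries lay below all Veh and all PF libraries, and PF+CS 1 alone of its group overlapped with Veh. Cct7 fell by 0.23 (SE 0.045, adjusted p = 0.0106) in CS minus Veh, a call lost without Veh 2 (adjusted p = 0.0632), CS 3 (0.0552) or CS 4 (0.0624), and no member was called there in those fits. Cct7 also lost it under limma with either pseudocount. Over both celastrol groups against Veh and PF it fell by 0.19 (SE 0.032, adjusted p = 0.00107), called in each of the 16 fits without 1 library.

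The 4 members grouped by symbol as small heat shock proteins included 1 that rose on the ration (Hspb1) and 1 that fell (Hspb6). That family binds unfolding proteins without ATP, and whether each of the 4 products does so was not examined. Hspb1 measured 2.47, 1.503, 1.96 and 3.12 CPM in Veh 1 to 4, 0.859, 1.68, 2.28 and 1.79 in CS 1 to 4, 2.36, 2.97, 2.80 and 4.42 in PF 1 to 4 and 4.94, 3.88, 5.83 and 1.29 in PF+CS 1 to 4. PF 4, PF+CS 1, PF+CS 2 and PF+CS 3 lay above every library fed freely, but PF+CS 4 was lower than all Veh libraries. Hspb1 rose by 0.90 (SE 0.25, adjusted p = 0.0246), on 7 to 65 counts per library, and lost the call without Veh 2, PF 4, PF+CS 1 or PF+CS 3, with adjusted p up to 0.0788. Hspb6, best known from muscle, measured 6.10, 8.16, 4.71 and 6.35 CPM in Veh 1 to 4, 6.75, 7.07, 5.13 and 6.38 in CS 1 to 4, 5.07, 3.85, 6.48 and 3.41 in PF 1 to 4 and 3.68, 5.59, 3.68 and 3.60 in PF+CS 1 to 4. PF 2, PF 4, PF+CS 1, PF+CS 3 and PF+CS 4 lay below every library fed freely, and Hspb6 fell by 0.54 (SE 0.14, adjusted p = 0.0112). Hspb8 and Hspb11 stood at 0.17 and 0.11 without a call. The summed level of 5 mural cell markers was 38.3 to 64.0 CPM in Veh, 41.1 to 128 in CS, 29.8 to 50.8 in PF and 49.9 to 119 in PF+CS, and its part in the value of Hspb6 was not tested.

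Within the groups on the ration the members called higher went together by library. PF 3 was the lowest PF library for 17 of the 20 and PF+CS 4 the lowest PF+CS library for 15, while PF 4 was the highest PF library for 12 and PF+CS 1 the highest of its group for 11. PF 3 had the second smallest total of all libraries, 6710037 counts, and PF+CS 4 a total of 7862917. PF 1, with the smallest total (6008564), was the lowest PF library for 3 of the 20. How often each library was the lowest of its group over all genes was not counted. In the mean log2 CPM of 5 oligodendrocyte markers PF 3 was the highest PF library (8.05 against 7.75 to 7.96) and PF+CS 4 the highest of its group (8.15 against 7.72 to 7.81). In that of 5 microglial markers PF+CS 4 was the highest of its group (4.04 against 3.49 to 3.75) and PF 3 was not (3.83 against 3.48 to 3.89). The part of these markers in the members' values was not tested. PF 3 and PF+CS 4 differed in meningeal markers, at a mean log2 CPM of 4.19 and 2.65. The libraries carry no feeding record, and whether intake differed within a group was not tested.

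In single pairs of groups the calls rested on fewer libraries than in the comparison of 8 with 8. Of the 13 members called in PF minus Veh, only Hsp90aa1 (0.24 (SE 0.045, adjusted p = 0.00493)) kept its call without each of the 16 libraries in turn. Hsp90aa1 lost that call when the 5 libraries low in meningeal markers were left out (adjusted p = 0.0649) and under limma on log2(FPKM + 1) (adjusted p = 0.0653) and on log2(FPKM + 0.1) (adjusted p = 0.0644). Leaving out Veh 1 or Veh 2 left 2 calls, leaving out PF 2 left 7, and leaving out PF 4 left 1. The largest values were those of Hspa1b (1.61), Hspa1a (1.22), Bag3 (0.46) and Hsph1 (0.40), and Dnajc12 was the 1 called lower (−0.30). The others called higher were Hsp90ab1 (0.13), Hspe1 (0.28), Ahsa1 (0.25), Dnaja1 (0.21), Dnaja4 (0.36), Dnajb4 (0.24) and Dnajc28 (0.36). All of these but Hsp90aa1 lost the call without PF 4.

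In PF+CS minus Veh, the 7 called higher were Hsp90aa1 (0.15), Hsph1 (0.32), Bag3 (0.36), Dnaja4 (0.26), Hsf1 (0.22), Dnajb4 (0.20) and Ahsa1 (0.19). The 4 called lower were Hspb6 (−0.60), Dnajc12 (−0.26), Dnajc10 (−0.15), a reductase of the endoplasmic reticulum, and Cct7 (−0.14). Under limma with either pseudocount these 4 kept their calls and none of the 7 called higher did. DESeq2 kept the calls of Hsp90aa1, Hsph1, Ahsa1, Dnajb4 and Dnajc10. None of the 11 kept its call without each library in turn, and the count was 0 without PF+CS 3, 2 without Veh 1, Veh 2 or PF+CS 1, and 5 to 7 without Veh 4, CS 1, CS 2, CS 3, CS 4 or PF+CS 2. In PF+CS minus CS, Hsp90aa1 (0.25 (SE 0.045, adjusted p = 0.00401)) and Hsph1 (0.45 (SE 0.079, adjusted p = 0.01)) kept their calls without any 1 library. Hsp90ab1 (0.15) and Ahsa1 (0.25) lost theirs without CS 1, CS 4, PF+CS 1 or PF+CS 3, which left 2 calls each, and Ahsa1 also without CS 3. Leaving out PF 3, PF 4 or PF+CS 4 raised the count to 9, 8 and 11.

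CS minus PF, in which both drug and food differ, had the most calls of any pair. Hsp90aa1 (−0.33 (SE 0.045, adjusted p = 0.000372)), Hsp90ab1 (−0.22), Hsph1 (−0.52), Ahsa1 (−0.31), Fkbp4 (−0.32), Dnaja1 (−0.28) and Cct7 (−0.24) were lower in CS and kept the call without any 1 library. Of these 7, Hsph1 lost it without the 5 libraries low in meningeal markers (adjusted p = 0.0923). The other 11 called lower were Hspa1a (−1.26), Hspa1b (−1.86), Hspa8 (−0.23), Hspa4 (−0.15), Hspa4l (−0.20), Hspd1 (−0.18), Cct5 (−0.17), Stip1 (−0.39), Bag3 (−0.43), Dnaja4 (−0.38) and Dnajc28 (−0.39), and Hspa12b was higher (0.62). The count of 19 became 8 without PF 4 or CS 4, 9 without CS 1, 10 without PF 1, 11 without CS 3 and 12 without PF 2. Each of these 12 lost its call without at least 1 library.

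**Figure D4:**
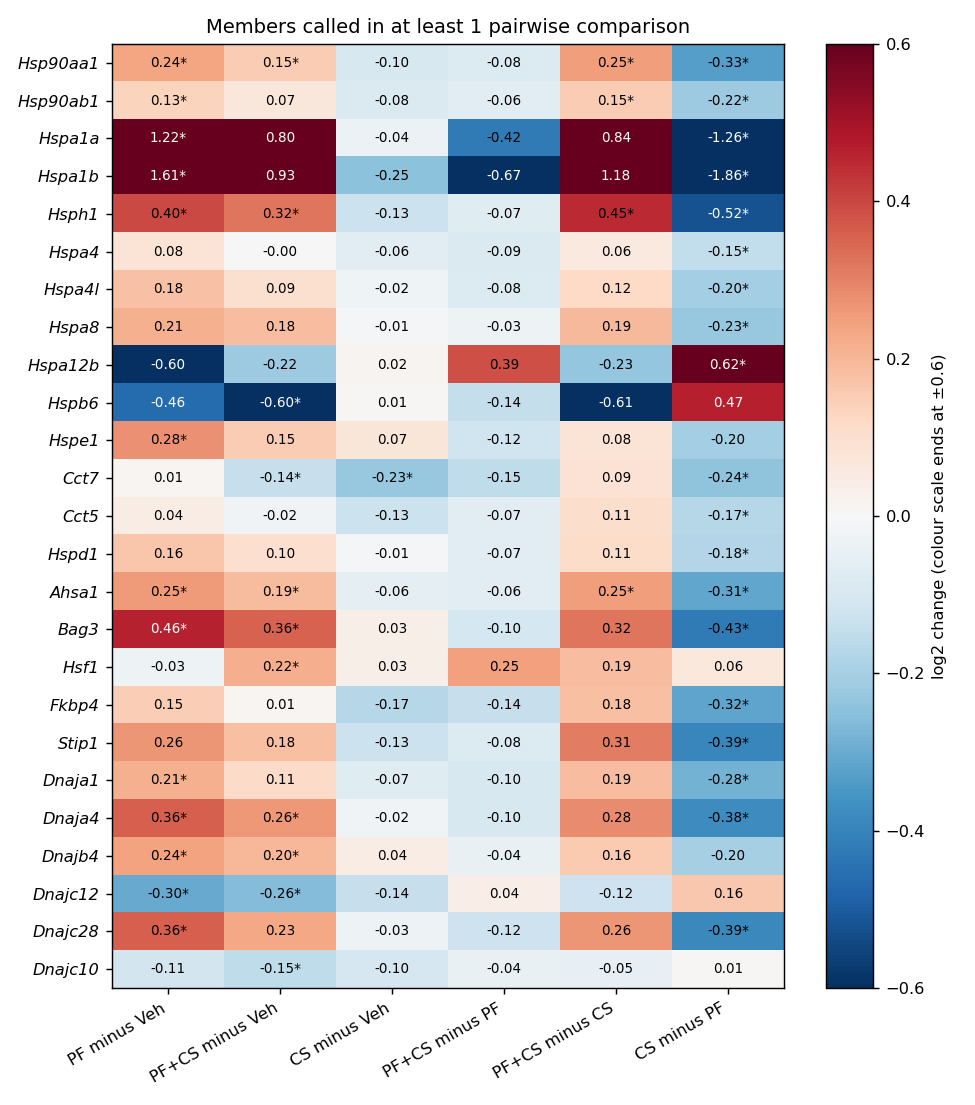
Log2 change of the 25 members called in at least 1 of the 6 pairwise comparisons (rows) in each of them (columns), from edgeR; an asterisk marks an adjusted p of at most 0.05 and the colour scale ends at ± 0.6. PF+CS minus PF has no asterisk and CS minus Veh has 1, that of Cct7 at −0.23.

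A list of 38 partner genes outside the naming rule was read beside the members, 36 of which were tested. On the ration 6 rose and 0 fell, with 6.92% of all genes called higher and 4.52% lower. Fkbp5, an HSP90-bound immunophilin known as a glucocorticoid target, measured 42.2, 32.7, 42.8 and 37.5 CPM in Veh 1 to 4, 41.2, 34.0, 38.0 and 40.8 in CS 1 to 4, 123, 46.4, 72.5 and 126 in PF 1 to 4 and 110.1, 148, 121 and 45.5 in PF+CS 1 to 4. All 8 libraries on the ration lay above all 8 others, and Fkbp5 rose by 1.35 (SE 0.26, adjusted p = 0.00503). The other 5 were Bag2 (0.30), an exchange factor of HSP70, Cdc37l1 (0.27), a relative of Cdc37, Pdcl (0.24), which works with TRiC, Tomm34 (0.17), a cytosolic adaptor of HSP70 and HSP90, and Ptges3 (0.13), the p23 that stabilises closed HSP90. Over both celastrol groups against Veh and PF, 3 partners fell and 0 rose, against 1.45% and 1.14% of all genes. These were Grpel1 (−0.23), the exchange factor of mitochondrial HSP70, Sqstm1 (−0.12), the autophagy receptor p62, and the polyubiquitin gene Ubb (−0.12).

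Partners were also called in pairs of groups. Of the 36 partners 1 was higher in PF minus Veh (Cdc37l1, 0.34), against 2.36% of all genes. In CS minus Veh 1 was lower (Grpel1, −0.31), against 0.589%, and in PF+CS minus CS 1 was higher (Bag2, 0.48), against 1.79%. In PF+CS minus Veh, 3 partners were higher and 4 lower, where 5.85% of all genes were called higher and 4.47% lower. Fkbp5 (1.46), Cdc37l1 (0.31) and Tomm34 (0.19) were the 3 higher, and those lower included Grpel1 (−0.28), Sqstm1 (−0.19) and Ubb (−0.14). In PF+CS minus PF, CS minus PF and the interaction edgeR called 0 of the 36, against 0.0948%, 3.8% and 0% of all genes.

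The authors' deposited tables give 5 of these comparisons, identified here by the columns they were computed from. In the authors' deposited table made from the Veh and PF columns, 10 members were higher in PF and 0 lower, with Hsph1 at 0.35 (SE 0.059, adjusted p = 1.63e-06). In that of Veh and CS, the authors' deposited values had 0 members higher and 2 lower in CS, with Cct7 at −0.20 (SE 0.043, adjusted p = 0.000832). The authors' deposited table of Veh and PF+CS had 6 higher and 0 lower, that of CS and PF+CS 12 higher and 0 lower, and that of PF and CS 1 higher and 16 lower in CS. Over all genes and in either direction, the authors' deposited tables called 375 for Veh and PF and 298 for Veh and CS. They called 1053 for Veh and PF+CS, 521 for CS and PF+CS and 527 for PF and CS. Which group counts as higher was set by the sign of the correlation between the members' deposited changes and those of edgeR. The sizes in the authors' deposited tables are smaller for genes with few counts (Hspa1b at 0.36 in PF against Veh there), so sizes were not set beside those of edgeR.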

How the data were processed

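Hypothalamic RNA of 16 libraries was sequenced after preparation with a SMARTer kit, per the labels. The deposited count table holds whole numbers. Another deposited table of these libraries is also named as counts but holds fractional values that decrease as genes get longer, and these were taken as FPKM. All 16 of its columns correlated best with their own count column once each gene was centred. Each of the authors' 5 comparison tables, as deposited, gives a baseMean (a signal, the mean of normalised counts), a log2 fold change with its SE, a test statistic (a score) and a p-value with its adjusted value. The build was GRCm38, per the submitters' processing notes, and the sources used here do not give the aligner, the counter or the strand setting. Positions come from GENCODE annotation of that build, and promoters from RefSeq (GRCm38.p6). By annotation 38 members overlap another gene, whose reads may be shared.

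The members, the lists and the rule for named genes were chosen with earlier results of these data known. By that rule the text names members called in a comparison, 12 members followed throughout, the highest and lowest of each role, those nearest the limit of 160 counts and partner genes called, of which 1 is not reported here. A robust quasi-likelihood model of the counts, over all 16 libraries, was run in edgeR 4.0.16 under R 4.3.3 with TMM normalisation, filterByExpr at a minimum count of 10 and Benjamini-Hochberg adjustment over all 14775 genes within each of 7 contrasts. The 2 contrasts over 8 and 8 libraries were added after the pairwise values were seen. CPM are counts scaled to the TMM-adjusted library size, and changes are on the log2 scale with their SE. The model was tested on simulated data. The table held 0 columns of another series. It has 27 genes whose names a spreadsheet had turned into dates, with 0.220 to 0.240% of the counts, and they are not named.

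Alternatives were DESeq2 1.42.0, its size factors in edgeR (RLE), no filter, the groups of a contrast alone, the fit without the 5 libraries low in meningeal markers, the replicate number as a block, an offset for GC content and length, limma 3.58.1 on log2(FPKM + 1) and log2(FPKM + 0.1), and each library left out in turn. The replicate numbers do not pair the libraries: over 24 same-numbered pairs the correlation of deviations from group means was −0.415 to 0.326, with 5 pairs over 0.1.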

Additional observations from a re-analysis of the deposited data

Results flagged for a closer look

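In 5 of 108 groups of 4 libraries tested, over 27 members, 1 library stood apart from the other 3 by Dixon's criterion, and chance alone gives about 1 in 20. Hspb6 was at 5.59 CPM in PF+CS 2, where the other PF+CS libraries had 3.60 to 3.68. Hspd1 was at 159 CPM in PF+CS 3 and at 143.8 to 145.4 in the others of its group. Dnaja1 was at 150 CPM in PF+CS 2, below the 167.7 to 170.9 of the other PF+CS libraries. Dnajc12 was at 21 CPM in Veh 3 (18.9 to 19.0 in the others) and at 17.7 CPM in PF 2 (15.03 to 15.3 in the others).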

How the results depend on the processing

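Members called in the comparison of 8 with 8 libraries for the ration numbered 17 to 24 over the 8 other settings, against 23, and 20 to 25 when 1 library was left out. For PF minus Veh (13), the count was 5 once the libraries poor in meningeal markers were left out, 6 with only the groups compared, 1 from limma on log2(FPKM + 1) and 1 on log2(FPKM + 0.1), and 1 to 19 with 1 library left out. For CS minus Veh (1) it was 2 by DESeq2, 2 with only those groups, 2 with the GC and length offset and 0 from limma on log2(FPKM + 1), and 0 to 2 with 1 library left out. For PF+CS minus Veh (11) it was 7 with only those groups, 5 from limma with either pseudocount, and 0 to 14 with 1 library left out. For PF+CS minus CS (4) it was 8 by DESeq2, 11 with only those groups, 11 without the 5 libraries, 2 from limma with either pseudocount, and 2 to 11 with 1 library left out. For CS minus PF (19) it was 9 without the 5 libraries, 8 from limma on log2(FPKM + 1), 9 on log2(FPKM + 0.1), and 8 to 23 with 1 library left out. For both celastrol groups against Veh and PF (2) it was 1 without the 5 libraries, 5 with the offset, and 1 to 6 with 1 library left out. With the replicate block the count was 7 in PF minus Veh, 4 in PF+CS minus Veh and 11 in CS minus PF, and within 1.5 times elsewhere, and the numbers do not pair the libraries (1 of 16 correlates best with its own number). PF+CS minus PF and the interaction gave 0 in every fit. The counts are given without the share of all genes called in each fit. A change particular to the members therefore cannot be told from a change over all genes. The cause of these differences was not tested. Of 148 named values 0 reversed, where only a value called in the main fit or the other fit could be counted as reversed. Changes of sign in values called in neither fit were not counted. Low counts limit Hspa1a, Hspa1b, Hspb1, Hspb6 and Hspa12b, and the exchange of PF and CS names limits which treatment a difference belongs to.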
